A study of Homo sapiens with 9 samples.

Results

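A transcriptome array measures many transcripts to which the annotation gives no gene name. Described here are the 6213 bright transcripts of that kind in 22Rv1 cells, of 42204 transcripts without a gene symbol and 67528 transcripts in all. They were chosen by 2 values alone. The annotation listed no symbol for them, and their mean level over all 9 arrays was at least 7 on the log2 scale. They are called members below. A mean over all arrays is no comparison between groups, but 909 members had a mean under 7 in at least 1 group and passed through the other groups.

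The 22Rv1 line is an established human prostate cancer cell line. In the SSX2 knockdown line (KD), the cells had received an shRNA plasmid directed at SSX2 with Lipofectamine, and the scramble control line (SCR) had received a scramble shRNA in the same way. Both were kept in neomycin, while the wildtype cells (WT) received no plasmid, so that transfection and selection separate SCR from WT as well. Each group has 3 arrays, which the labels call technical replicates of 1 line per group. All p-values therefore measure the spread between such replicates, not between lines that were made separately. SSX2, the targeted gene and a cancer/testis antigen, had a mean level of 5.13 in the KD line, beside 11.94 and 11.92 in SCR and WT.

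A transcript on this array is a transcript cluster, a group of probes laid along 1 stretch of the genome. Clusters without a symbol can be long noncoding RNAs, small structural RNAs, pseudogenes, repeats, or parts of known genes that were not joined to them. Much of a human cell's RNA of this kind is made in low amounts and is specific to a tissue, whereas RNA of the mitochondrion and small RNAs of the nucleus are abundant. The identifier of a cluster starts with TC, followed by 2 characters for the chromosome and by a number. No sequence of a cluster itself was available here, and the members are named by identifier.

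As many as 17 members held the same 9 values as a transcript that does carry symbols, which is the nearest the files come to a name for them. They matched RNU1-10P, a U1 small nuclear RNA pseudogene, GOLGA2P2Y and GOLGA2P3Y, which are golgin pseudogenes, MIR1244-1 and MIR1244-2, and 5 sets of SNAR genes. The SNAR genes encode short noncoding RNAs made in many near-identical copies on chromosome 19. The miR-1244 hairpin is shown because it makes plain how 1 set of probes can stand for several places. RefSeq (GRCh38.p14) lists 4 copies with 1 distinct sequence of 85 bases, at chr2:231713314-231713398 and chr5:118974586-118974670 on the plus strand, and on chromosome 12 at chr12:9239467-9239551 on the minus strand and chr12:12111952-12112036 on the plus strand. The capitals mark the mature microRNA in the hairpin and, in the line after it, the seed, its bases 2 to 8.
miR-1244 hairpin: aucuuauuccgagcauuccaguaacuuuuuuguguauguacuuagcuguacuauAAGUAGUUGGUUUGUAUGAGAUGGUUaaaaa
miR-1244 mature: aAGUAGUUgguuuguaugagaugguu
The member that shares the values of MIR1244-1 and MIR1244-2, TC12000172.hg.1, read 8.88, 9.03 and 8.98 on the KD arrays, 9.25, 9.43 and 9.42 on the SCR arrays and 9.27, 9.42 and 9.21 on the WT arrays. Its KD arrays lay below all control arrays, at a log2 difference of -0.40 from SCR that did not pass (SE 0.08, adjusted p = 1 from limma with Bonferroni adjustment). The 17 members differed between KD and SCR by -0.57 to 0.08, and 16 of them were below 0. Of these 17, limma called 0 after Bonferroni adjustment, and 16 had an unadjusted p under 0.05. Over all 67528 transcripts, 30414 had an unadjusted p under 0.05. The 17 members hold the values of only 8 sets of symbols, and 9 of them share those of SNAR-A3 and SNAR-A4. The counts of 16 therefore repeat some measurements.

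Members reached up to 13.97 in mean level, with a median of 8.05. Low levels were the most common, as 3016 members had a mean between 7 and 8 and 137 a mean of 12 or more. Bright transcripts with a symbol, of which there are 11002, had a median level of 8.13. The 23 sets of background probes on the array had medians of 3.60 to 3.81, so that a mean of 7 lies well above them. The residual SD between arrays of a group had a median of 0.08 over the members and of 0.05 over bright transcripts with a symbol. Over the members, Pearson's r was 0.992 to 0.997 between arrays of the same group, 0.987 to 0.99 between an SCR and a WT array, and 0.813 to 0.84 between a KD array and a control. These correlations run across transcripts, which are not independent.

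The brightest member was TC01002863.hg.1. It read 14.05, 14.03 and 13.91 on the KD arrays, 13.93, 13.96 and 13.996 on the SCR arrays, and 13.99, 13.97 and 13.87 on the WT arrays. The groups overlapped, and the KD and SCR means differed by 0.04 (SE 0.06). Next came TC02000740.hg.1, TC04000491.hg.1, TC04001102.hg.1 and TC07001932.hg.1, which hold the same values as each other and as TC09000152.hg.1 on chromosome 9, all at a mean of 13.86 and a difference between KD and SCR of 0.06 (SE 0.05). The steadiest members over the 9 arrays were TC02002617.hg.1, with values from 13.75 to 13.80, TC22000092.hg.1, from 8.99 to 9.06, and TC12001678.hg.1, from 10.62 to 10.69. At the lower edge of the choice, TC11003370.hg.1, TC15000518.hg.1 and TC06000257.hg.1 had means just over 7, and TC15000158.hg.1, TC15000163.hg.1 and TC06000307.hg.1 just under it, so that these transcripts on either side of the limit do not differ in level.

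In KD cells, more members were lower than higher. Against SCR, 696 members (11.2%) were called lower and 376 (6.05%) higher, at a Bonferroni-adjusted p under 0.05 from limma over all 67528 transcripts. Over all transcripts the same rule called 4.68% lower and 4.08% higher. Bright transcripts with a symbol stood at 11.9% lower and 11.2% higher, so that the share of members called lower was close to theirs and the share called higher was below theirs. Against WT, 643 members were called lower and 396 higher, beside 4.49% lower and 4.13% higher over all transcripts. Both comparisons share the KD arrays, and in such a bulk measurement fewer cells with a transcript and less of it per cell cannot be told apart. Against both controls, 597 members were lower, 336 were higher, and 0 were called in opposite directions. With the more lenient Benjamini-Hochberg adjustment, 2680 members were lower and 1375 higher against SCR (over all transcripts 22.7% and 14.8%), and 2676 lower and 1336 higher against WT (23.7% and 14.8%). Without SCR array 2 or SCR array 3, the count lower against SCR was 455 or 456, and the plain ANOVA that the methods name called 39 lower and 46 higher. Restricted to the 5304 members with a mean of at least 7 in every group, 452 were lower and 287 higher against SCR, and 417 were lower against WT.

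**Figure D1:**
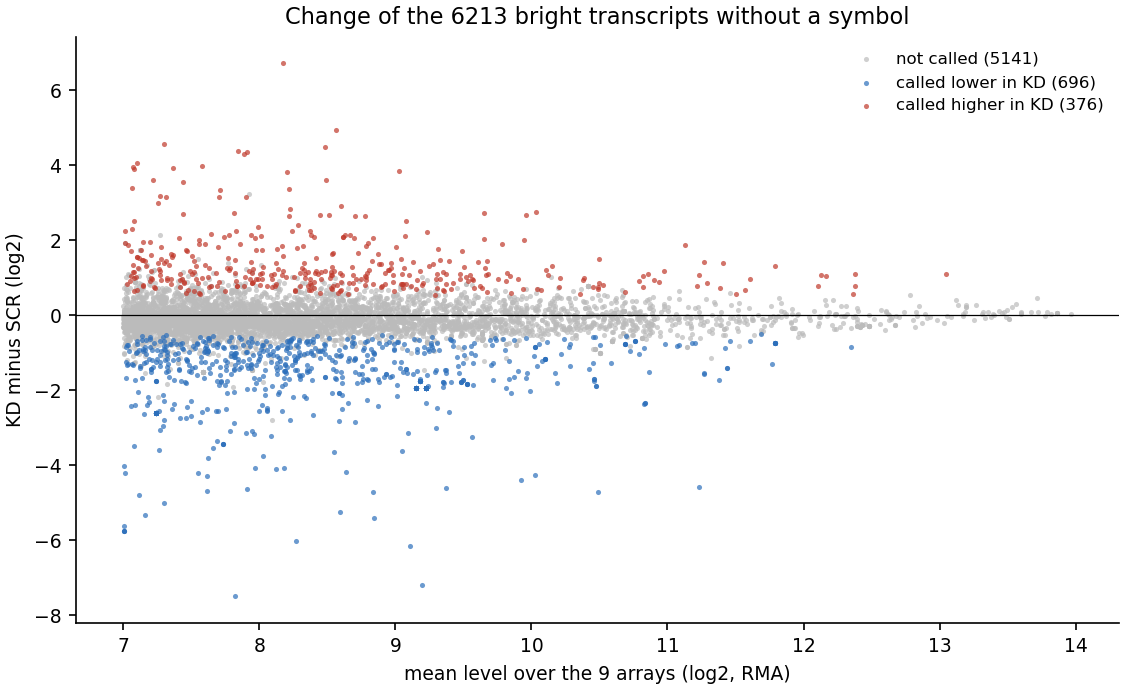
Log2 difference between KD and SCR means (vertical axis) against the mean log2 level over the 9 arrays (horizontal axis) for each of the 6213 members, with 1 point per member. Blue marks the 696 members called lower and red the 376 called higher, and few blue points stand at a mean of 12 or more.

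The whole distribution was moved a little below 0. The median member differed between KD and SCR by -0.14 on the log2 scale, with 4059 members below 0 and 2154 above, beside medians of -0.06 over all transcripts and -0.06 over bright transcripts with a symbol. The scaling of the arrays moved these medians. With each array centred on its median the values became -0.08 for members and 0.01 for all transcripts, and with quantile normalization -0.09 and -0.01, so that the median of members stayed below 0 under both scalings. Most changes were small, as 4290 members lay within 0.5 of 0 and the middle of the distribution ran from -0.41 (25th percentile) to 0.14 (75th percentile). Among the called members, 480 were lower and 230 higher by at least 1 on the log2 scale, 132 and 66 by at least 2, 29 and 8 by at least 4, and 4 and 1 by at least 6. The share called lower was 8.79% for means between 7 and 8, 12.9% between 8 and 9 and 18.0% between 9 and 10. It was 10.5% between 10 and 11, 13.8% between 11 and 12, and 0.73% (1 of 137) at 12 or more.

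In KD cells 665 members had a mean under 7, in SCR 194 and in WT 208. Nothing is read from these counts, since 6 of the 9 arrays behind the choice of members are controls and a transcript low in KD alone passes the level of 7 more easily than one low in both controls.

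The largest rise was that of TC09001875.hg.1 on chromosome 9. It read 12.65, 12.56 and 12.64 on the KD arrays, 5.82, 6.13 and 5.76 on the SCR arrays and 6.07, 5.91 and 6.03 on the WT arrays. The controls overlapped with each other and the KD arrays stood apart, by 6.72 over SCR on the log2 scale (SE 0.09, adjusted p = 2.4e-09), or 105-fold. TC12002256.hg.1 on chromosome 12 had KD values of 12.04, 12.11 and 12.10, SCR values of 7.12, 7.19 and 7.15 and WT values of 6.44, 6.41 and 6.55, with no overlap between any of the groups. Its rise over SCR was 4.93 (SE 0.05, adjusted p = 1.9e-10). These 2 transcripts reached KD levels above 12, where 137 of all members have their mean.

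TC02002474.hg.1 on chromosome 2 rose from SCR values of 5.91, 5.93 and 5.85 and WT values of 5.61, 5.55 and 5.49 to KD values of 10.53, 10.45 and 10.40. All KD arrays were above all controls, and the rise over SCR was 4.57 (SE 0.05, adjusted p = 5.4e-10). The nearest symbol-bearing transcripts in the order of numbers are ITGB6, an integrin subunit of epithelial cells, 5 numbers below and DPP4, a cell-surface peptidase, 4 numbers above. They differed by -0.06 and 0.35 and were not called. TC0X000267.hg.1 on the X chromosome read 11.36, 11.42 and 11.31 in KD, 6.84, 6.85 and 6.94 in SCR and 7.32, 7.24 and 7.08 in WT, a rise over SCR of 4.49 (SE 0.07, adjusted p = 5.7e-09). It is numbered directly between MAGIX and SYP-AS1, an antisense transcript of the synaptophysin gene, which differed by -0.05 and -0.26 and were not called.

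The other 6 of the 10 largest rises lay between 3.95 and 4.38 over SCR. TC05002693.hg.1 had KD values of 10.64 to 10.68 and control values of 6.20 to 6.79. TC02004666.hg.1 had 10.93 to 11.02 and 6.03 to 6.65, and TC02003993.hg.1 had 10.73 to 10.82 and 6.32 to 6.55. In each of these the KD arrays formed a narrow group far above the controls. TC02004744.hg.1 differed between the controls too, with KD values of 10.25 to 10.55, SCR values of 6.09 to 6.47 and WT values of 4.46 to 4.84. TC02001528.hg.1 had KD values of 10.01 to 10.43 and control values of 6.06 to 6.42. It is numbered 4 above ADI1, a dioxygenase of methionine salvage that differed by -0.09, and 14 below LINC00487, which differed by -0.05. TC17002570.hg.1 had KD values of 9.62 to 9.76 and control values of 5.55 to 5.86. Of the 10 largest rises, 5 carry the code of chromosome 2, which holds 387 of the 6213 members. Apart from TC12002256.hg.1 (SCR mean 7.15) and TC0X000267.hg.1 (WT mean 7.21), these 10 had both control means under 7. Those members passed the level of 7 through KD, and nothing is read from their direction or their chromosome.

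The largest fall was that of TC07002894.hg.1 on chromosome 7. It read 10.27, 10.39 and 10.47 on the SCR arrays, 10.21, 10.24 and 10.18 on the WT arrays and 2.76, 3.08 and 2.79 on the KD arrays. The KD values lay under the median of the background sets on all 3 KD arrays, so the size of the fall is bounded by the array. With KD held at the background median, SCR was at least 101-fold brighter, a log2 difference of 6.66, against a fitted difference of -7.50 (SE 0.09, adjusted p = 4.5e-10). TC04002840.hg.1 on chromosome 4 fell from SCR values of 11.66, 11.68 and 11.72 and WT values of 11.37, 11.45 and 11.42 to KD values of 4.24, 4.47 and 4.78. That is a difference from SCR of -7.19 (SE 0.11, adjusted p = 7.2e-09), and its KD values were above the background medians of their arrays.

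TC15002176.hg.1 on chromosome 15 fell from 11.17, 11.10 and 11.17 in SCR, with WT values of 11.18, 11.16 and 11.19, to 5.11, 4.78 and 5.10 in KD. The controls overlapped, and the difference from SCR was -6.15 (SE 0.08, adjusted p = 2.2e-09). TC0X000358.hg.1 on the X chromosome read 10.32, 10.31 and 10.28 in SCR, 10.22, 10.25 and 10.20 in WT and 4.06, 4.29 and 4.47 in KD, a difference from SCR of -6.03 (SE 0.09, adjusted p = 4.2e-09). Its number is next to that of HEPH, a ferroxidase of iron export, which had a mean of 4.31 and differed by -0.10, and 2 below that of YIPF6, which had a mean of 8.48 and differed by -0.23. Neither was called.

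TC02000836.hg.1 on chromosome 2 is 1 of 3 identifiers with the same values. It read 9.40, 9.18 and 9.14 in SCR, 8.13, 8.39 and 8.34 in WT and 3.21, 3.66 and 3.58 in KD, with no overlap between groups and 2 of the KD arrays under the background median. The difference from SCR was -5.75 (SE 0.12, adjusted p = 1.5e-07), and with KD held at background SCR was at least 46.0-fold brighter. Its nearest symbol-bearing transcript, 6 numbers below, is POTEE, of a primate gene family named for its expression in prostate, ovary, testis and placenta. POTEE was called lower at -5.76, and its means were 9.66 and 9.05 in SCR and WT against 3.90 in KD. On the other side, RHOQP2, a pseudogene 16 numbers above, was called higher at 1.35.

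TC01003050.hg.1 on chromosome 1 is numbered between ZNF697, a zinc finger gene, and REG4, a secreted lectin of the gut. It fell from SCR values of 10.48, 10.54 and 10.48 and WT values of 10.03, 10.07 and 10.00 to KD values of 5.38, 5.18 and 5.16. The difference from SCR was -5.26 (SE 0.06, adjusted p = 7.3e-10). ZNF697 differed by -0.03 and was not called, and REG4 was called lower at -1.30 from a mean level of 4.23.

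The other 4 of the 10 largest falls were between -5.63 and -5.01 against SCR. TC12002978.hg.1 had control values of 8.62 to 9.00 and KD values of 3.00 to 3.51, all under the background median, and SCR was at least 37.4-fold brighter. TC17002117.hg.1 had control values of 10.42 to 10.75 and KD values of 5.25 to 5.37. TC02004582.hg.1 had SCR values of 9.04 to 9.24, WT values of 8.38 to 8.62 and KD values of 3.69 to 3.97. In all 3 the KD arrays were far below the controls. TC21000568.hg.1 had control values of 8.80 to 9.13 and KD values of 3.93 to 4.08. The 10 largest falls all had KD means under 7, so they passed the level of 7 through the controls, and nothing is read from their direction. Of all members, 5 had a KD mean below the highest background median, while 0 had an SCR or WT mean there.

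**Figure D2:**
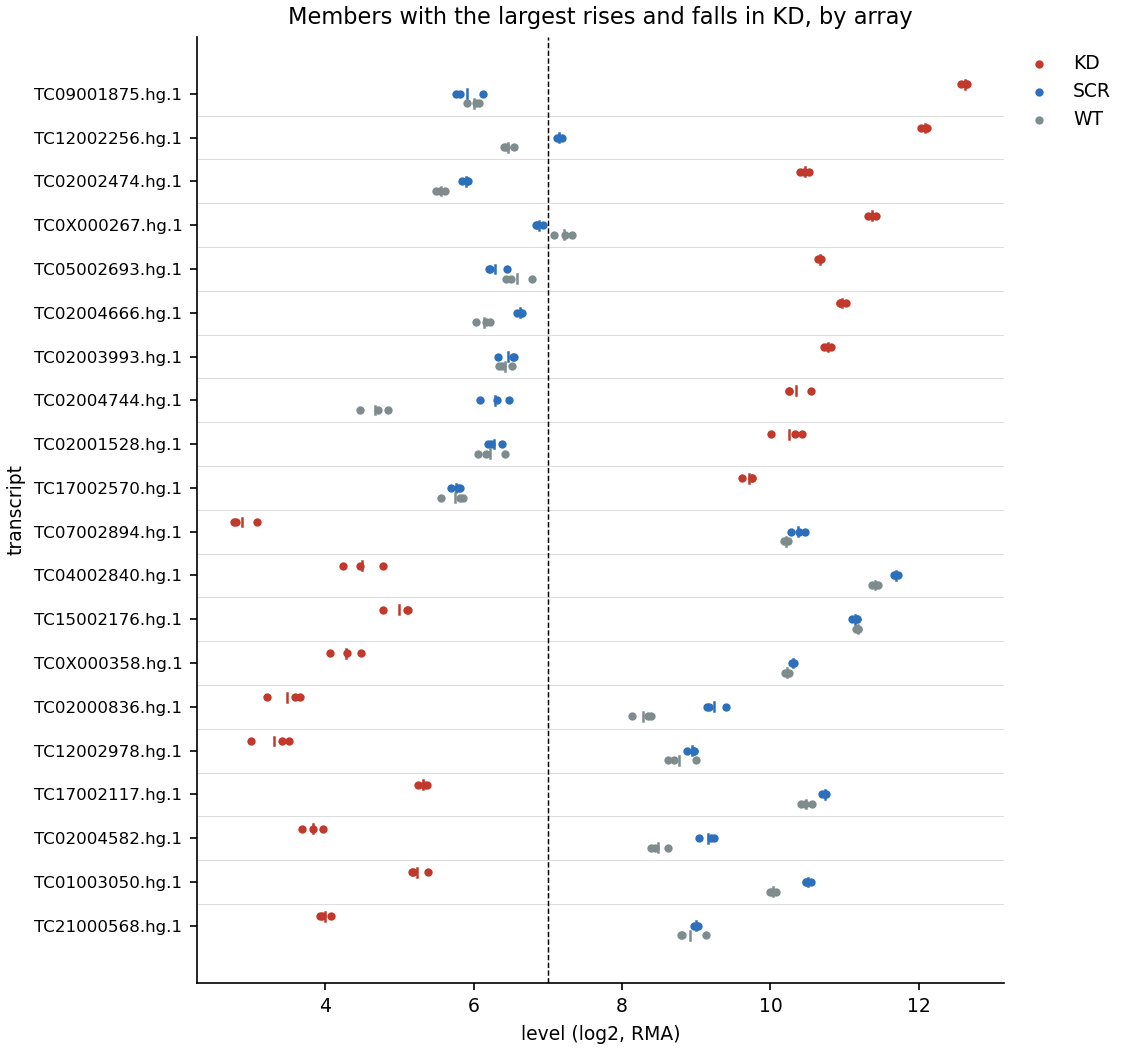
Log2 level on each array (horizontal axis) of the 10 members with the largest rises and the 10 with the largest falls of KD against SCR among members called against both controls. Points are arrays (KD red, SCR blue, WT grey), short vertical strokes are group means and the dashed line is the level of 7, which the KD points and the control points of most rows lie on opposite sides of.

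Members were found on chromosomes 1 to 22, X and Y and on the mitochondrion. Chromosome 1 held the most, 658 (10.6% of members). As a share of the symbol-less transcripts of a chromosome, members ranged from 7.83% on chromosome 13 and 8.52% on chromosome 18 to 28.1% on chromosome 16 and 28.3% on chromosome 19. On chromosome 21, 29 of 100 members were lower and 11 higher in KD against SCR, beside 5.17% lower and 4.33% higher among all transcripts of that chromosome. On chromosome 22, 36 of 187 were lower and 5 higher, beside 7.99% and 2.32% among all its transcripts. On chromosome 18, 11 of 56 were lower and 8 higher, beside 8.59% and 7.89%. Rises outnumbered falls on chromosomes 8, 10, 14, 15 and 17, with 26 against 22 on chromosome 14 (over all its transcripts 7.46% higher and 3.68% lower) and 27 against 23 on chromosome 17 (5.45% and 3.07%). Members that hold the same values enter these counts more than once, and without them chromosome 21 had 20 of 89 lower. No test was made between chromosomes. The shares over all transcripts of a chromosome, and of the contigs below, include dim transcripts, which were called less often. Of dimmer transcripts without a symbol, 1.64% were lower and 1.30% higher, and of bright transcripts with a symbol 11.9% and 11.2%. A larger share among members than among all transcripts of a chromosome is therefore not a comparison at like level.

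**Figure D3:**
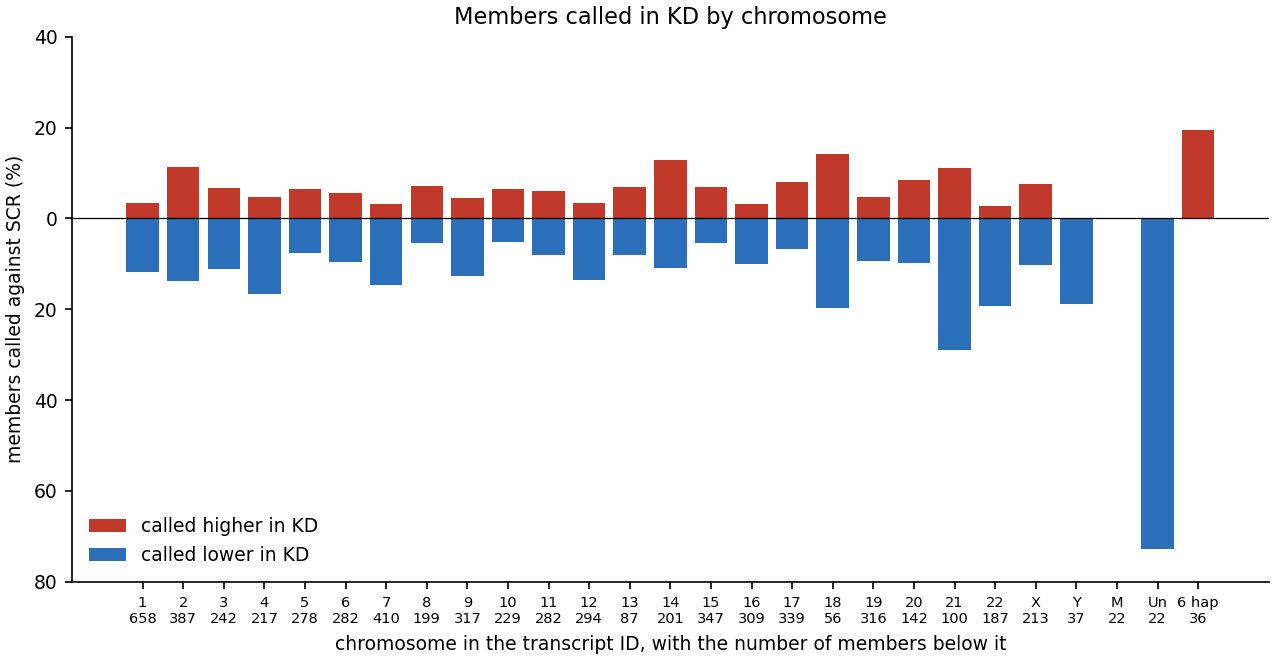
Share of members called in KD against SCR (vertical axis, percent, higher above the line in red and lower below it in blue) by the chromosome in the identifier, with the number of members under each name. Codes with fewer than 20 members are left out, Un stands for unplaced contigs and 6 hap for haplotype contigs of chromosome 6, and the unplaced contigs (16 of 22 lower) and chromosome 21 (29 of 100 lower) reach farthest down.

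Most members on contigs that were placed on no chromosome were lower in KD. Of their 29 symbol-less transcripts, 22 were members, and 16 of these were called lower in KD against SCR, 15 against WT. All 22 differences from SCR were below 0, from -2.61 to -0.28 with a median of -1.78, and 21 of 22 had an unadjusted p under 0.05. Over all 67528 transcripts, 30414 had an unadjusted p under 0.05. Among all 51 transcripts of these contigs, 43.1% were lower. The 22 members hold 16 distinct profiles, of which 10 were lower. TCUn_gl000213000004.hg.1, TCUn_gl000214000001.hg.1, TCUn_gl000214000002.hg.1 and TCUn_gl000221000002.hg.1 had KD means under 7 and passed the level of 7 through the controls. Nothing is read from the direction of these. Their values recur elsewhere, as 72 members placed on 14 other codes hold the same 9 values as an unplaced member.

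Such families of identical values were frequent, with 124 families that hold 558 members and 5779 distinct profiles in all. An array cannot say from which of the copies the signal came. The largest family has 35 identifiers under 12 codes, including the unplaced contigs. It is represented by TC01001060.hg.1, which read 7.98, 8.11 and 8.19 in KD, 10.13, 10.11 and 9.84 in SCR and 9.41, 9.60 and 9.64 in WT, a difference from SCR of -1.93 (SE 0.10, adjusted p = 0.00034). A family of 22 identifiers under 7 codes, represented by TC02000800.hg.1, read 5.41, 5.72 and 5.89 in KD, 8.30, 8.31 and 8.25 in SCR and 7.63, 7.96 and 7.70 in WT, a difference of -2.61 (SE 0.12, adjusted p = 0.00017). In a family of 18 under 7 codes, represented by TC01001058.hg.1, KD read 7.72, 7.80 and 8.11, SCR 9.77, 9.81 and 9.88 and WT 9.61, 10.11 and 9.57, a difference of -1.94 (SE 0.14, adjusted p = 0.013). In all 3 families the KD arrays lay below all control arrays. These families were picked for their size after the values were seen.

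Of the 124 families, 24 (142 members) were called lower and 1 (2 members) higher. Among the lower ones, those of TC02000800.hg.1, TC02000818.hg.1, TC02000836.hg.1, TC01003064.hg.1 and TC14000003.hg.1 had KD means under 7. They passed the level of 7 through the controls, and nothing is read from their direction. Outside the families, 554 of 5655 members (9.80%) were lower, and over all transcripts 4.68% were lower and 4.08% higher. Some of the 24 lower families hold nearly the same levels, so they need not be separate signals. Those of TC02000796.hg.1 and TC14000017.hg.1 both had KD means of 8.46, with SCR means of 10.30 and 10.24. The family called higher, that of TC15000167.hg.1 on chromosome 15, read 9.89, 9.96 and 9.90 in KD, 7.78, 7.78 and 7.95 in SCR and 8.11, 8.14 and 7.995 in WT, a rise of 2.08 (SE 0.06, adjusted p = 3.5e-06). With each profile counted 1 time, 578 members were lower and 375 higher against SCR, and 540 lower and 383 higher against WT. A pair of identifiers on chromosome 17, TC17000231.hg.1 and TC17001237.hg.1, lie in number order beside copies of SNORD3, the U3 small nucleolar RNA that guides ribosomal RNA processing. They read 9.52, 9.63 and 9.37 in KD, 11.97, 11.82 and 11.79 in SCR and 11.24, 11.13 and 11.03 in WT, a difference from SCR of -2.36 (SE 0.08, adjusted p = 1.5e-05), with no overlap between groups. They were singled out after their values were seen. The SNORD3A, SNORD3D and SNORD3C transcripts near them in number differed by -1.08, -1.12 and -1.07 and were not called.

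Haplotype contigs of chromosome 6 are alternative versions of the region that includes the HLA genes. Of their 36 members, 19 were above and 17 below 0 in KD against SCR, with a median difference of 0.20. Limma after Bonferroni adjustment called 7 higher and 0 lower, beside 6.99% higher and 2.10% lower over all 1430 transcripts of these contigs. In either direction, 33 had an unadjusted p under 0.05, beside 30414 of all 67528 transcripts. Each of the 7 haplotypes contributed 1 called member, but these need not be separate signals. TC6_mann_hap4000022.hg.1 had means of 8.16 in KD and 6.71 in SCR, and TC6_ssto_hap7000020.hg.1 had means of 8.14 and 6.68. TC6_apd_hap1000019.hg.1 had means of 7.51 in KD and 6.85 in SCR, a rise of 0.65 (SE 0.05, adjusted p = 0.011), and TC6_mcf_hap5000206.hg.1 had means of 9.13 and 6.97, a rise of 2.16 (SE 0.06, adjusted p = 1.9e-06). The other 5 rises lay between those values, and as the SCR and WT means of all 7 were under 7, these members had passed the level of 7 through KD, and nothing is read from their direction.

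All 22 symbol-less transcripts of the mitochondrion were members, and they were among the brightest, with a median level of 13.34 and 14 of them at 13 or more. The mitochondrial genome is transcribed from both strands into long precursors that are cut into messenger, ribosomal and transfer RNAs. Their differences between KD and SCR ranged from -0.41 to 0.53 with a median of 0.08. Limma with Bonferroni adjustment called 0 of 22, 9 had an unadjusted p under 0.05, and Benjamini-Hochberg adjustment called 7, of which 6 were higher in KD. Over all 67528 transcripts, 30414 had an unadjusted p under 0.05, and Benjamini-Hochberg adjustment called 14.8% higher and 22.7% lower. Their residual SD had a median of 0.06. TC0M000012.hg.1 read 13.95, 14.03 and 13.98 in KD, 13.55, 13.54 and 13.50 in SCR and 13.60, 13.65 and 13.65 in WT, and TC0M000019.hg.1, the dimmest, read 8.96, 7.82 and 8.62 in KD, 9.13, 8.72 and 8.79 in SCR and 9.36, 9.45 and 9.30 in WT. The first of these had its KD arrays above all controls, and the second had overlapping KD and SCR arrays.

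**Figure D4:**
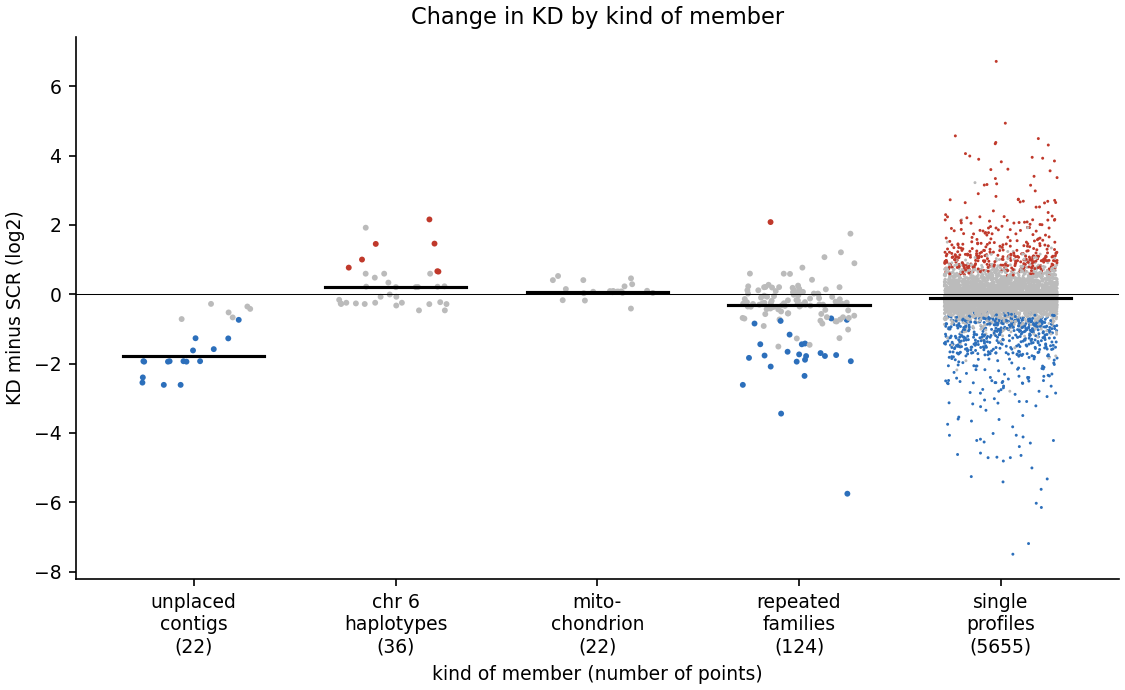
Log2 difference between KD and SCR means (vertical axis) for members of unplaced contigs, chromosome 6 haplotype contigs and the mitochondrion, for the 124 families of identical values (1 point per family) and for the 5655 members with values of their own. Horizontal bars are medians (-1.78, 0.20, 0.08, -0.30 and -0.12), blue and red points were called lower and higher, and a member of the contigs or the mitochondrion can also appear in the last columns.

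The numbers in the identifiers carry an order. On a chromosome, transcripts with a symbol were numbered along 1 strand and then along the other, as 98.3% of 20907 steps from one symbol-bearing transcript to the next were ascending in the RefSeq gene order. In the first stretch of numbers, 99.5% of 7290 transcripts with a known strand were on the plus strand, and in the next 99.8% of 7073 were on the minus strand. A long block without any symbols follows on each chromosome. Of the members, 2787 (44.9%) lay before the block and 3268 (52.6%) in it. Before the block, 286 members were lower and 92 higher in KD against SCR (10.3% and 3.30%), and in the block 373 were lower and 273 higher (11.4% and 8.35%). The share called lower was thus close in both, while the share called higher was larger in the block. Their medians were -0.18 and -0.09.

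The changes of members with consecutive numbers had a higher correlation before the block than in it, but the pairs before it repeat some measurements. Before the block, the log2 differences of 465 pairs of consecutive members with unequal values had a Pearson's r of 0.69 and a Spearman's rho of 0.67, and 81.1% of the pairs had the same sign. In the block, 839 pairs had an r of 0.27 and a rho of 0.30, with 62.6% of the same sign. Between a member and a bright transcript with 1 symbol numbered next to it, also before the block, r was 0.23 and rho 0.18. This was over 1179 pairs, with 58.3% of the same sign. All pairs were measured on the same 9 arrays and a member can be in more than 1 pair. Through families of identical values, the same 2 profiles can also recur in several of the 465 pairs. In the numbers from TC01001389.hg.1 to TC01001397.hg.1, for example, 2 families alternate. How much of the r of 0.69 rests on such repeats was not tested. Of 134 such pairs in which the member was called against SCR, the symbol-bearing transcript was called in the same direction in 35 and in the opposite direction in 9. Over all bright transcripts with a symbol, 11.9% were called lower and 11.2% higher.

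Runs of consecutive members called the same way were mostly runs of falls. There were 2 runs of 4, 7 of 3 and 41 of 2 called lower, against 1 run of 3 and 15 of 2 called higher. Of all members, 696 were lower and 376 higher against SCR, and runs were not counted over all transcripts. Some runs of falls hold the same profiles, so the counts repeat some measurements. The runs from TC04000288.hg.1 and TC04001182.hg.1 share their values, as do those from TC15001031.hg.1 and TC21000018.hg.1. A run of 4 opens the numbering of chromosome 21, with TC21000001.hg.1, TC21000002.hg.1, TC21000003.hg.1 and TC21000004.hg.1 at -2.07, -1.94, -1.93 and -1.51 against SCR. The second and the third of them belong to families of identical values described above. TC21000001.hg.1 read 6.29, 6.35 and 6.54 in KD, 8.40, 8.43 and 8.58 in SCR and 8.31, 8.55 and 8.44 in WT, with no overlap between KD and the controls. The run of 3 rises, TC04002159.hg.1, TC04002160.hg.1 and TC04002161.hg.1, had rises of 1.10, 1.11 and 1.10, and TC04002160.hg.1 read 10.23, 10.24 and 10.22 in KD, 9.07, 9.12 and 9.18 in SCR and 9.05, 9.21 and 8.95 in WT. Runs were singled out after their values were seen.

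The comparison of SCR with WT addresses transfection and selection with a scramble shRNA, which cannot be told apart from any other difference between those lines. In it 16 members were called higher and 3 lower, beside 0.141% and 0.074% over all transcripts. Benjamini-Hochberg adjustment called 180 higher and 48 lower (1.11% and 0.709% over all transcripts), and the methods' ANOVA called 0. At an unadjusted p under 0.05 there were 1164, beside 7966 of all 67528 transcripts. Without SCR array 2, SCR array 3 or WT array 1, 6 were higher, and without SCR array 1, 5 were lower. The median difference was 0.01.

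The largest rise in SCR was that of TC02004744.hg.1, described above, with 1.62 over WT (SE 0.13, adjusted p = 0.024). TC06000725.hg.1 on chromosome 6 read 9.18, 9.24 and 9.31 in SCR, 7.88, 7.62 and 7.81 in WT and 8.79, 8.94 and 8.92 in KD, a rise over WT of 1.48 (SE 0.08, adjusted p = 0.00044). Here KD stood close to SCR and apart from WT. It is numbered next to RIMS1, a scaffold of the presynaptic zone, which differed between KD and SCR by -0.999 and was called, and 5 above OGFRL1, which was called higher at 1.04. TC11002739.hg.1 read 8.82, 8.79 and 8.81 in SCR, 7.41, 7.44 and 7.30 in WT and 6.13, 5.84 and 6.21 in KD, so that WT lay between the other groups (1.42 over WT, SE 0.09, adjusted p = 0.0029). TC0X002165.hg.1 rose by 1.37 (SE 0.10, adjusted p = 0.014), with SCR values of 9.26 to 9.48, WT values of 7.91 to 8.10 and KD values of 6.62 to 7.02. TC01004693.hg.1 rose by 1.25 (SE 0.10, adjusted p = 0.021), from WT values of 5.80 to 6.22 to SCR values of 7.18 to 7.34, with KD values of 10.35 to 10.49.

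The 3 members lower in SCR differed in where KD stood. TC05002756.hg.1 on chromosome 5 read 9.71, 9.71 and 9.79 in WT, 8.08, 8.05 and 8.13 in SCR and 7.67, 7.58 and 7.41 in KD, a difference of SCR from WT of -1.65 (SE 0.07, adjusted p = 6.9e-05). TC02003503.hg.1 on chromosome 2 read 8.42, 8.48 and 8.31 in WT, 7.10, 7.09 and 7.13 in SCR and 7.15, 7.27 and 7.08 in KD, a difference of -1.30 (SE 0.06, adjusted p = 0.00029), with SCR and KD arrays overlapping. TC02003767.hg.1 on chromosome 2 read 6.45, 6.54 and 6.43 in WT, 5.48, 5.37 and 5.45 in SCR and 9.47, 9.25 and 9.25 in KD, a difference of -1.04 (SE 0.07, adjusted p = 0.0052). Over the 3 groups, 5035 members were called in none of the comparisons, and 589 were lower and 332 higher in KD against both controls with no call between the controls. Of the 16 members higher in SCR than in WT, 11 were called lower in KD than in SCR and 3 higher. The comparisons share the SCR arrays.

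**Figure D5:**
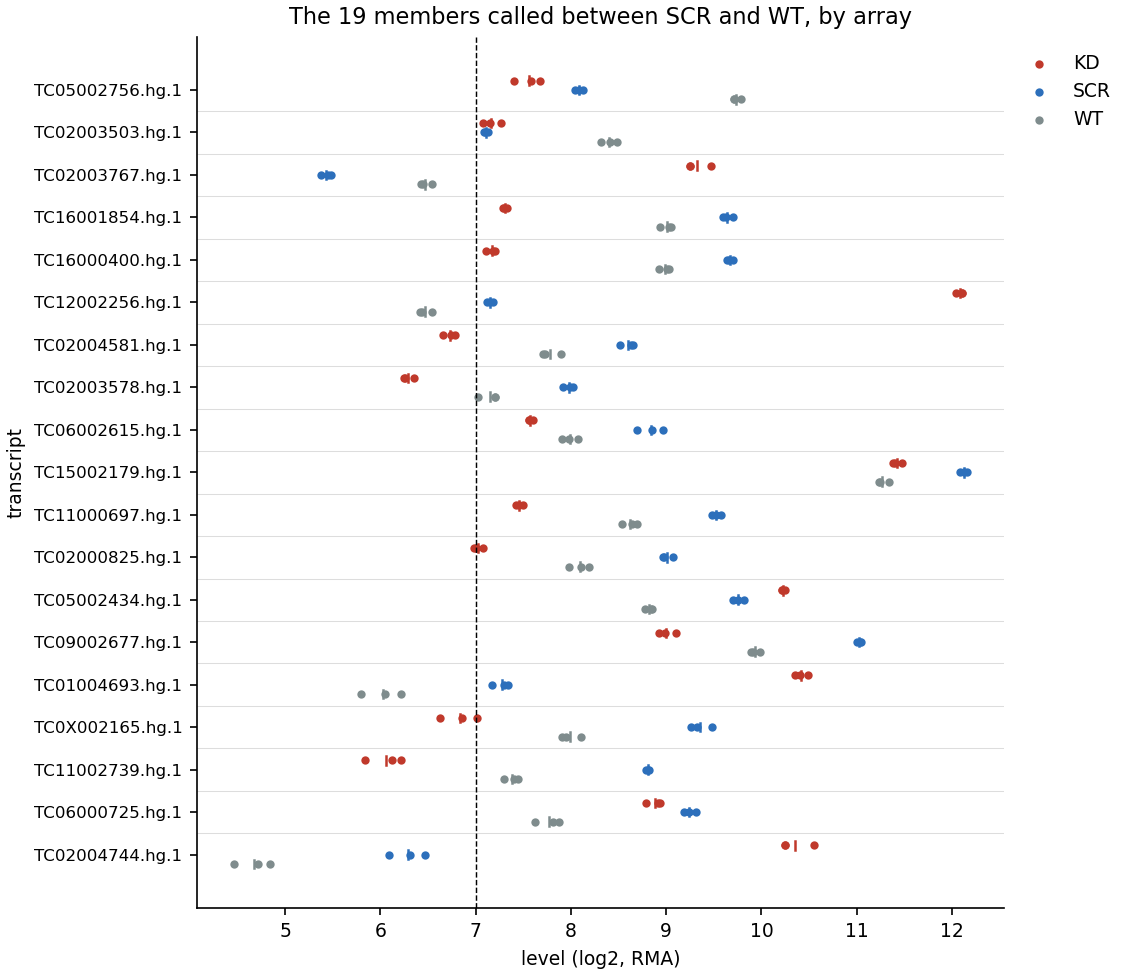
Log2 level on each array (horizontal axis) of the 19 members called between SCR and WT, from the largest fall in SCR at the top to the largest rise at the bottom. Points are arrays (KD red, SCR blue, WT grey), short vertical strokes are group means and the dashed line is the level of 7, and KD lies on either side of the controls or between them depending on the transcript.

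A few members varied widely within a group. The residual SD was over 0.2 in 229 members. TC10002568.hg.1 on chromosome 10 read 7.13, 4.63 and 5.50 in SCR, 7.94, 8.23 and 8.31 in WT and 8.05, 7.80 and 7.85 in KD, and its difference between KD and SCR of 2.15 did not pass (SE 0.49, adjusted p = 1). TC21000560.hg.1 on chromosome 21 read 7.14, 5.05 and 5.92 in KD, 9.03, 8.68 and 8.79 in SCR and 9.34, 9.53 and 9.32 in WT, and its difference of -2.80 did not pass either (SE 0.41, adjusted p = 1). In both, all arrays of the variable group lay below those of the others.

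Markers were examined for the identity of the cells. Of 10 prostate luminal genes, 7 were measured with a symbol of their own, and 4 of them were called lower in KD against SCR. KLK2, a kallikrein protease of the prostate, measured 5.52 in KD and 9.44 in SCR, KLK3, which encodes prostate-specific antigen, 6.29 and 7.87, HOXB13, a homeobox factor of the prostate, 6.44 and 8.77, and TMPRSS2, a membrane serine protease, 6.36 and 8.59. EPCAM, KRT8 and KRT18, markers of epithelial cells, differed by 0.01 to 0.10 and were not called. The 4 measured leukocyte markers lay between 3.06 and 5.49 in all groups, the 3 endothelial markers between 3.94 and 5.91, and the 5 fibroblast markers between 3.17 and 7.18, of which LUM was called lower at -1.14. RNA integrity numbers averaged 2.5 in the labels, and their part in any of these results was not tested.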

How the data were processed

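RNA of 3 groups of 22Rv1 cells was hybridised to 9 Affymetrix Human Transcriptome Arrays. Per the labels and the methods, the authors applied RMA, and the values they deposited are on a log2 intensity scale and were used as they stand. The sources used here do not name the annotation's genome build. Of 70523 probe sets, 67528 transcripts were tested and 2995 others left out. Symbols came from the platform annotation, which gives 23781 transcripts 1 symbol, 1543 several and 42204 none. RefSeq (GRCh38.p14) gave the gene order and the microRNA sequence.

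R 4.3.3 with limma 3.58.1 took the 9 arrays in 1 fit with a mean for each group, and eBayes, unaltered, added 3.34 prior to 6 residual degrees of freedom. A transcript was called at a Bonferroni-adjusted p under 0.05 over all 67528, as the methods adjust after a one-way ANOVA. The fit was tested on simulated data. On arrays, precision is limited by their number. The members, lists and tests were chosen with earlier results of these data known. Named members are the 5 brightest, the 10 largest rises and falls of KD against SCR called against both controls without overlap of arrays (members with values already taken were skipped), the 5 largest rises and the falls of SCR against WT, 3 on either side of the level of 7 and the 3 steadiest. Symbol-bearing transcripts were named as neighbours, as holders of the same values or as markers. Alternatives were another adjustment, the ANOVA, a fold minimum, median centring, quantile normalization, removal of dim transcripts, a fit of only the compared groups, a variance both robust and trended, a block for the array number, leaving out each array, a level of 7 in every group and identical values counted 1 time.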

Additional observations from a re-analysis of the deposited data

How the results depend on the processing

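Counts are given in the order higher and lower, for KD against SCR (376 and 696), KD against WT (396 and 643) and SCR against WT (16 and 3). Benjamini-Hochberg adjustment gave 1375 and 2680, 1336 and 2676, and 180 and 48. The methods' ANOVA with Bonferroni adjustment gave 46 and 39, 26 and 22, and 0 and 0, and it lost the calls of 7 of the 20 named members for KD against SCR and of 8 of 8 for SCR against WT. A fold minimum of 1 on the log2 scale gave 230 higher for KD against SCR, 236 for KD against WT and 6 for SCR against WT. A mean of 7 in every group gave 452 and 417 lower for the KD comparisons and 9 higher for SCR against WT. Only the compared groups in the fit gave 239 and 389 for KD against WT and 6 higher for SCR against WT. With the array number as a replicate block, 453 were lower for KD against SCR, 254 and 387 were called for KD against WT and 4 were higher for SCR against WT. Same-numbered arrays had an r over all transcripts of -0.02 to 0.16 between their deviations, beside -0.21 to 0.09 for arrays with different numbers. Whether the numbers pair the arrays cannot be told from these ranges. With 1 array left out, the counts ran from 256 to 336 and from 455 to 617 for KD against SCR, from 267 to 319 and from 418 to 517 for KD against WT, and from 6 to 11 and from 2 to 5 for SCR against WT. Moves of over 1.5 times came without SCR arrays 2 and 3 for the lower count against SCR, without KD array 2 (424) and WT arrays 1 (425) and 2 (418) for the lower count against WT, and without any array but KD array 3 for the higher count of SCR against WT, and without SCR array 1 (5) for the lower. None of the 20 members named for KD against SCR or the 8 named for SCR against WT changed sign under the alternatives run. The other alternatives moved the counts by less than 1.5 times. The cause of these moves was not tested, except that a stricter fold or level leaves fewer members. A difference that ends near the background sets is limited by signal, not by spread.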
